A study of Mus musculus with 18 samples.

Results

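The liver comparison of a mouse feeding study was examined across all measured genes. Its 6 RNA-seq libraries, out of 18 in the whole series, are those labelled as wild-type liver: 3 from mice on a ketogenic diet and 3 from mice on ordinary chow. All mice were wild-type C57BL/6J, an inbred laboratory strain, and went on their diet at 4 weeks of age for 21 days. The ketogenic diet held 90% fat, 9.7% protein and 0.3% carbohydrate. The remaining libraries, 6 of heart and 6 of kidney, came from the same diets. Sex, hour of tissue collection and feeding state at collection are not given in the labels used here. The title of the series concerns cellular senescence that depends on p53, so the comparison was also read for that program.

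On a diet that is almost all fat, fatty acids that reach the liver are activated to acyl-CoA and oxidised in mitochondria and peroxisomes, and part of the acetyl-CoA is turned into ketone bodies for other organs. Making fatty acids from sugar is the opposite route, and insulin and carbohydrate switch it on. Senescence is a lasting exit from the cell cycle. The transcription factor p53 can start it by inducing Cdkn1a (p21), an inhibitor of cyclin-dependent kinases, and senescent cells often lose lamin B1 and secrete inflammatory and matrix-remodelling proteins.

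Levels are given as CPM (counts relative to the scaled library size), in the order of replicates 1, 2 and 3, and changes as log2 fold changes of ketogenic over chow with the standard error (SE). Adjusted p-values are from edgeR's quasi-likelihood test with Benjamini-Hochberg adjustment over all genes tested, and a gene was called, or said to rise or fall, at an adjusted p under 0.05. The libraries held 18151967 to 23835383 estimated counts. Ketogenic replicates 1 and 2, which the labels call biological replicates, varied beyond counting by 1.85% (coefficient of variation), where the other pairs within a diet varied by 6.18 to 9.55%. They were summed into 1 sample, so that ketogenic means and SDs have n = 2 and chow n = 3. Nothing in the labels ties a library to a cage or a day, and p-values measure the spread between these samples only. Of 13220 genes tested, 4868 passed (36.8%): 2543 were higher (19.2%) and 2325 lower (17.6%) on the ketogenic diet, with a median log2 fold change over all tested genes of 0.01. As 6 separate samples the libraries gave 6164 calls among 12947 genes (47.6%), and 4825 of the calls were shared. In 28.9% of the tested genes all 3 ketogenic libraries lay above all 3 chow libraries, and in 27.9% below. A test against a 1.5-fold change left 1072 calls, 561 higher and 511 lower. Counts of called genes in the lists below are to be read beside the shares over all tested genes, 19.2% higher and 17.6% lower.

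Most of the called enzymes that build fatty acids from sugar were lower on the ketogenic diet, among them the enzyme that makes monounsaturated fat. Scd1, the stearoyl-CoA desaturase of the liver (chromosome 19, 44468940 to 44482199, minus strand, mm9), stood at 123, 116 and 149.5 CPM on the ketogenic diet and at 10490, 8642 and 11450 CPM on chow. The groups were far apart and the fall was 75.7-fold (log2 fold change -6.24, SE 0.20, adjusted p = 2.37e-08). Among 32 tested genes that make fatty acids and triglycerides, 17 fell, 4 rose and 11 did not pass, and the median log2 fold change was -0.39. Fasn, the fatty acid synthase, stood at 971, 970.4 and 970.5 CPM against 1742, 2495 and 1945 CPM on chow. It fell by 1.08 on the log2 scale (SE 0.15, adjusted p = 0.000354), and no ketogenic library reached the lowest chow library. The steps that supply it with carbon and reducing power fell by a similar size: Acly (ATP citrate lyase) by 0.89, Acaca (acetyl-CoA carboxylase) by 1.09 and Me1 (malic enzyme) by 0.89 on the log2 scale. Elovl6, which lengthens palmitate, fell by 1.20 (adjusted p = 5.25e-05).

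The 4 genes of this list that rose act at other points of lipid assembly. Mogat1, which adds a fatty acid to monoacylglycerol, was at 2.89, 1.74 and 1.73 CPM against 0.363, 0.503 and 0.406 CPM on chow (log2 fold change 2.27, adjusted p = 0.000408). Fads2, the desaturase that starts the making of long polyunsaturated fatty acids, rose by 0.85 (adjusted p = 0.000173), Thrsp by 1.02 (adjusted p = 0.0389) and Lpin2, a phosphatidate phosphatase, by 0.67 (adjusted p = 0.00547). Without ketogenic replicate 3, where the lone summed pair is assumed to vary like chow, the calls of Lpin2 (adjusted p = 0.0502) and Thrsp (0.162) were lost.

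Many genes of lipid droplets and of fatty acid uptake were higher. Cidec, which lets droplets fuse and grow (chromosome 6, 113374630 to 113385749, minus strand, mm9), was at 25.7, 31 and 29.4 CPM against 0.68, 0.419 and 0.677 CPM on chow, a log2 fold change of 5.60 (SE 0.18, adjusted p = 2.37e-08). Of 15 droplet genes 8 rose and none fell, with a median of 0.31. Plin4, a droplet coat protein, rose by 2.32 and Fitm1, which helps fat bud into droplets, by 2.08 on the log2 scale, with no overlap between the diets in either gene.

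Among 24 genes of fatty acid uptake and activation 13 rose, 3 fell and 8 did not pass (median 0.55). Fabp2, a fatty acid carrier best known from intestine, was at 318, 324 and 271 CPM on the ketogenic diet and at 49.8, 40.8 and 33.9 CPM on chow. That is a log2 fold change of 2.84 (SE 0.16, adjusted p = 4.83e-06). The fatty acid receptor and transporter Cd36 stood at 160.3, 156 and 189.5 CPM against 35.6, 46.2 and 44.8 CPM, with no overlap (log2 fold change 2.04, adjusted p = 3.57e-06). Among the 3 falls were Lpl and Fabp5. Lpl, the lipoprotein lipase that frees fatty acids from particles in blood, was at 27.2, 30.3 and 28.2 CPM against 209.9, 175 and 316 CPM (log2 fold change -3.04, adjusted p = 0.0013). Fabp5, another carrier, was at 11.8, 12.6 and 4.31 CPM against 79.6, 87.2 and 92.3 CPM (log2 fold change -3.32, adjusted p = 0.0126). Its adjusted p was 0.0508 without chow replicate 1 and 0.0659 without chow replicate 3. Mfsd2a, which carries lysophosphatidylcholine with long-chain fatty acids into cells, was among the 15 largest rises, at 104, 112 and 187 CPM against 1.91, 2.68 and 7.53 CPM (log2 fold change 5.19, adjusted p = 0.0146, and 0.0637 without chow replicate 2).

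**Figure D1:**
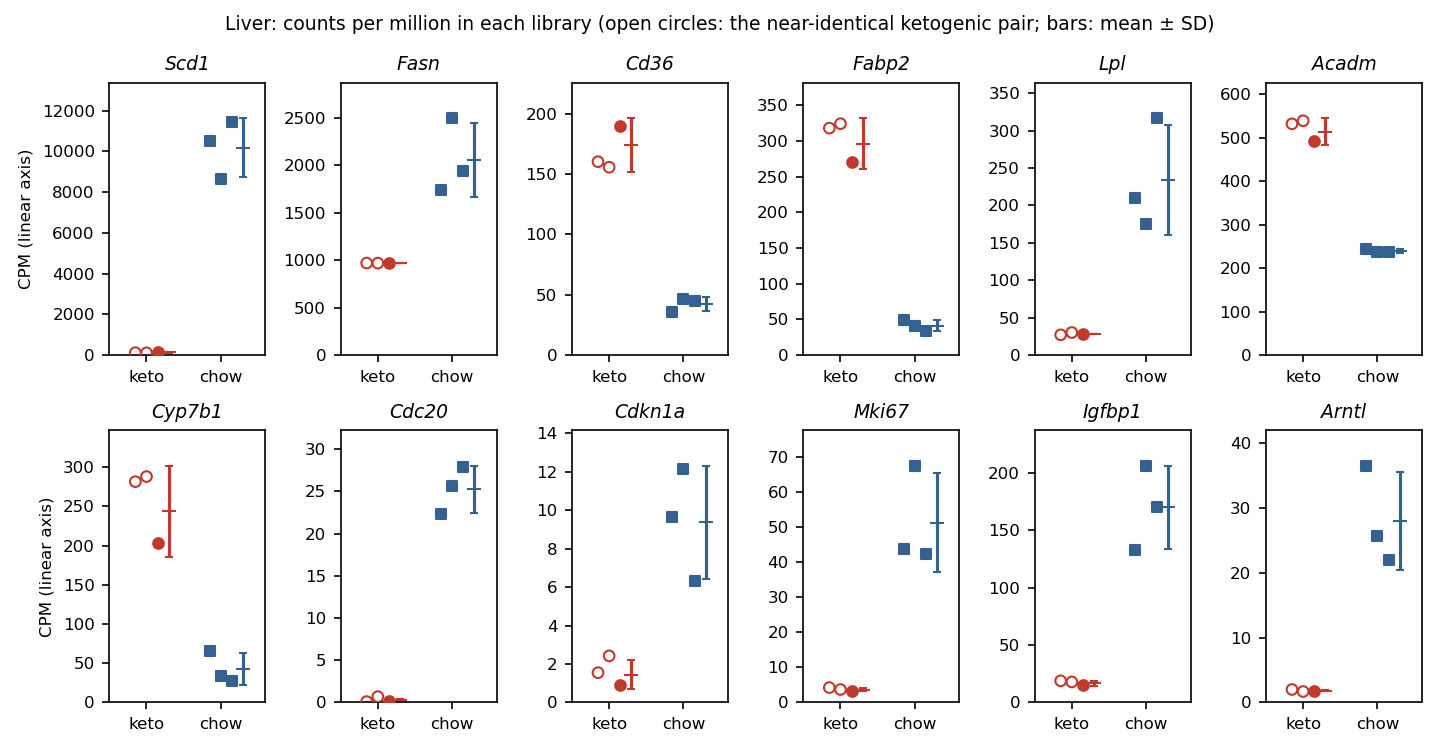
CPM of 12 genes in each liver library on linear axes that start at 0, with ketogenic libraries as circles (open for the summed pair) and chow libraries as squares; bars are the mean ± SD with n = 2 and n = 3. The ketogenic and chow points of each gene do not overlap, and the 3 ketogenic Fasn points lie between 970.4 and 971 CPM.

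Fatty acid oxidation genes were higher. Of 23 mitochondrial beta-oxidation genes 19 rose, 4 did not pass and none fell, with a median log2 fold change of 0.69. Hsd17b10, which oxidises short and branched acyl chains, stood at 245, 257 and 238 CPM against 93, 99.3 and 88.1 CPM (log2 fold change 1.39, SE 0.10, adjusted p = 3.93e-06). Acadm, the dehydrogenase of medium-chain acyl-CoA, stood at 532, 538 and 493 CPM against 244, 238 and 237 CPM (log2 fold change 1.10, adjusted p = 1.52e-05). In both genes the ketogenic libraries lay above every chow library by more than the spread within either diet. The electron carriers rose by less: Etfa by 0.52, Etfdh by 0.50 and Etfb by 0.39 on the log2 scale. With the trend of fold change on gene length removed, as described further on, Etfb did not pass (log2 fold change 0.01, adjusted p = 0.954).

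In peroxisomes, which shorten very long chains, 15 of 23 genes rose, 2 fell and 6 did not pass (median 0.38). Pex11a, which makes peroxisomes divide, was at 62.4, 62.9 and 51.5 CPM against 19.3, 17 and 18.1 CPM (log2 fold change 1.66, adjusted p = 3.89e-06). Acaa1a, the peroxisomal thiolase, rose by 1.11, and the CoA hydrolase Nudt7 by 1.13 on the log2 scale. Against them, Acox2, which shortens the side chain of bile acid precursors, fell by 0.48 (adjusted p = 0.00589) and the transporter Abcd2 by 0.53 (adjusted p = 0.0104, and 0.0908 without ketogenic replicate 3).

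Omega-hydroxylation, which attacks the far end of a fatty acid, had 12 tested genes, of which 2 rose, 3 fell and 7 did not pass. Over all tested genes 19.2% were higher and 17.6% lower. Aldh3a2, the fatty aldehyde dehydrogenase, was at 1144, 1144 and 1054 CPM against 291, 289 and 213 CPM (log2 fold change 2.06, adjusted p = 4.34e-06). The other that rose was the P450 Cyp4a14, at 1261, 1248 and 1176 CPM against 575, 950.2 and 690.5 CPM (log2 fold change 0.72, SE 0.19, adjusted p = 0.0214), and it did not pass without ketogenic replicate 3 (adjusted p = 0.0892) or chow replicate 3 (0.0676). Cyp4f14, Cyp4f16 and Cyp4a31, P450 enzymes of the same route, fell by 1.17, 1.69 and 1.98, and Cyp4a31 lost its call without ketogenic replicate 3 (adjusted p = 0.0616). Reads of Cyp4a genes can map to several members of the family and were shared out between them as fractions, so single Cyp4a values are uncertain.

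Of 10 tested genes of ketone body metabolism 3 rose, 1 fell and 6 did not pass (median 0.27). Acat1, a thiolase at the entry to the route, was at 768, 772 and 647 CPM against 377, 333 and 306 CPM (log2 fold change 1.07, SE 0.12, adjusted p = 7.56e-05). The lowest ketogenic library lay well above the highest chow library. The 1 gene that fell was the ketone exporter Slc16a1, by 0.78 on the log2 scale.

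Of 28 nuclear receptors and co-regulators 6 rose, 4 fell and 18 did not pass, near the shares over all tested genes (19.2% higher, 17.6% lower). Log2 fold changes in the list ran from -1.555 to 1.121, and the genes named next are from those that rose. Ppara, the fatty acid receptor that drives oxidation genes, was at 530.1, 514 and 641 CPM against 421, 372 and 350.2 CPM (log2 fold change 0.61, adjusted p = 0.0027). Pparg, the fat-storage receptor, was at 21.7, 20.1 and 16.1 CPM against 11.8, 7.38 and 6.63 CPM (log2 fold change 1.12, adjusted p = 0.0112). Sirt3, a mitochondrial deacetylase, rose by 0.83.

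Genes of sterol synthesis were more often higher than lower. Of 25 genes 15 rose, 2 fell and 8 did not pass (median 0.42). Hsd17b7, a reductase of a late step, stood at 213, 201 and 215 CPM against 95.5, 109.9 and 97.9 CPM (log2 fold change 1.06, SE 0.10, adjusted p = 2.12e-05). All ketogenic libraries were above all chow libraries. Cyp51, which removes a methyl group from lanosterol, rose by 0.98 and Sqle, the squalene epoxidase, by 0.69 on the log2 scale. Scap, which escorts the sterol-sensing factor SREBP, fell by 0.71.

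Single bile acid genes changed in both directions. Cyp7b1, an oxysterol hydroxylase of the alternative branch, was at 281, 288 and 203 CPM against 65.5, 34 and 27.3 CPM (log2 fold change 2.53, SE 0.48, adjusted p = 0.0285). Cyp7b1 did not pass when ketogenic replicate 3 (adjusted p = 0.0723), chow replicate 2 (0.0841) or chow replicate 3 (0.0552) was left out. Cyp8b1, which sets the share of cholic acid, rose by 0.97 (adjusted p = 7.71e-05), and Cyp2c70, which makes the muricholic acids of rodents, fell from 665, 565 and 581 CPM to 149.7, 155 and 146 CPM (log2 fold change -2.02, adjusted p = 1.67e-06). Nr0b2 (SHP), a repressor of bile acid synthesis, fell by 1.20, and Abcb11, the bile salt export pump, by 0.83, while the phosphatidylcholine flippase Abcb4 rose by 0.94. Of 25 bile acid genes 5 rose and 7 fell, where 19.2% of all tested genes were higher and 17.6% lower. The other 13 did not pass, among them the rate-limiting enzyme Cyp7a1 (log2 fold change 1.86, SE 0.66, adjusted p = 0.122).

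For lipoproteins 9 of 22 genes rose and 4 fell. Apoa4, an apolipoprotein of lipid-rich particles, stood at 985, 1001 and 1600 CPM against 206, 165 and 176 CPM (log2 fold change 2.83, adjusted p = 5.28e-05). Tm6sf2, which helps load triglyceride onto very-low-density lipoprotein, was at 10.7, 11.5 and 11.8 CPM against 36.1, 36.8 and 33.3 CPM (log2 fold change -1.63, adjusted p = 3.89e-06). Apom, a carrier of sphingosine-1-phosphate, fell by 0.84, and Lipg, the endothelial lipase, rose by 1.86 on the log2 scale.

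Of 27 glycolysis and fructolysis genes 10 fell, 3 rose and 14 did not pass (median -0.17). The falls lay between 0.35 and 0.73 on the log2 scale and ran along the pathway, from Gpi1 (0.67) through Pfkl (0.59) and Gapdh (0.70) to Eno1 (0.73). Ldha, which makes lactate, rose by 0.61 (adjusted p = 0.0144). In glycogen metabolism Gys2, the synthase, was at 254, 254 and 299 CPM against 139, 150.1 and 143 CPM and rose by 0.94, and Pygl, the phosphorylase, was at 352, 352 and 358 CPM against 648, 649 and 650.5 CPM and fell by 0.87 (adjusted p = 8.44e-05).

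Of 22 gluconeogenesis genes 3 rose, 4 fell and 15 did not pass, where 19.2% of all tested genes were higher and 17.6% lower. G6pc, which releases free glucose, fell from 545, 502 and 827 CPM on chow to 253, 253 and 180.3 CPM (log2 fold change -1.52, adjusted p = 0.0103, and 0.0573 without chow replicate 1). Pdk4, a kinase that holds back pyruvate oxidation, was low in both groups, at 6.33, 6.74 and 5.18 CPM against 15, 12.4 and 13 CPM (log2 fold change -1.18, adjusted p = 0.000196). Gyk, the glycerol kinase that brings glycerol into the pathway, rose by 1.15 and Pcx, pyruvate carboxylase, by 0.47.

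Several genes under insulin's control were lower. Igfbp1, a binding protein of insulin-like growth factors, stood at 18.9, 17.9 and 14.8 CPM against 133, 206 and 171 CPM (log2 fold change -3.34, SE 0.22, adjusted p = 4.09e-05). Irs2, the insulin receptor substrate, stood at 21.3, 21.1 and 17.7 CPM against 66.6, 61 and 54.8 CPM (log2 fold change -1.64, adjusted p = 6.01e-06). In neither gene did a ketogenic library reach the lowest chow library. Of 20 insulin and FOXO genes 7 fell and 2 rose, and of 20 genes of the growth hormone and IGF axis 7 fell and 1, Igfbp6, rose. Igf1 itself fell by 0.81 (adjusted p = 0.00679, and 0.0627 without ketogenic replicate 3). Stat5b, the factor that growth hormone activates, fell by 0.92 and Igfbp3 by 1.46.

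Genes whose level in mouse liver differs between the sexes changed in libraries that all had the marks of male tissue. The X-inactivation RNA Xist was at 0.108 CPM or less, and the Y-linked Ddx3y between 66.9 and 110.2 CPM, in every library. Of 13 female-biased genes 5 fell, 1 (Acot3) rose and 7 did not pass (median -2.58). Hao2, a hydroxyacid oxidase, was at 0.15, 0 and 0.216 CPM against 13.4, 15 and 5.01 CPM on chow (log2 fold change -6.44, adjusted p = 0.00909, and 0.0508 without ketogenic replicate 3). Cyp2a4, a steroid hydroxylase, was at 0.474, 0.447 and 1.73 CPM against 83.7, 149 and 44.4 CPM (log2 fold change -6.65, adjusted p = 0.0234). It did not pass when ketogenic replicate 3 (adjusted p = 0.076) or chow replicate 1 (0.0749) was left out, and reads are shared with the near-identical Cyp2a5. Cyp3a44 fell by 3.66 on the log2 scale, with an adjusted p of 0.000318.

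Of 14 male-biased genes 4 rose, 1 fell and 9 did not pass. The major urinary proteins, small carriers of odorants that males secrete in large amounts, supplied 8 of the 15 largest rises, but their genes are nearly identical and reads were split between them. Mup8 shows the limit, at 55.8 and 668 CPM in the near-identical ketogenic replicates 1 and 2. The sum over 20 Mup genes was steadier: 44400, 54190 and 30460 CPM on the ketogenic diet against 7332, 7199 and 7002 CPM on chow. The summed level was 5.56 times higher on the ketogenic diet (39880 ± 13320 against 7177 ± 166 CPM, SD, n = 2 and n = 3), a value with no test. Susd4 rose by 1.77 (adjusted p = 0.00018).

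Of 14 genes of the urea cycle and nitrogen disposal 2 rose, 4 fell and 8 did not pass. Cps1 and Ass1, the urea cycle enzymes that fix ammonia and add aspartate, fell: Cps1 was at 2815, 2798 and 3756 CPM against 6138, 6533 and 6048 CPM (log2 fold change -0.93, adjusted p = 0.000544). Ass1 was at 1157, 1144 and 1560 CPM against 2562, 2665 and 2552 CPM (log2 fold change -0.93, adjusted p = 0.000463). Ketogenic replicate 3 was the closest to chow in both, and still below every chow library. The 2 that rose were Slc25a13, a mitochondrial aspartate and glutamate carrier, by 0.49 (adjusted p = 0.00201) and Otc, ornithine transcarbamylase, by 0.31 (adjusted p = 0.0323). Otc did not pass without ketogenic replicate 3 (adjusted p = 0.0673), chow replicate 2 (0.0686) or chow replicate 3 (0.0975). Of 41 genes of amino acid breakdown 10 rose and 12 fell, with Oat, ornithine aminotransferase, up by 1.19 and Acmsd, which turns tryptophan carbon away from NAD, down by 2.05. Of 19 genes of branched-chain amino acid oxidation 10 rose and none fell (median 0.37), led by Hibch at 0.97 and Auh at 0.78.

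These enzymes also differ by place in the liver lobule. Of 15 periportal markers 8 fell and 1 rose (Pigr, the receptor that carries antibodies into bile, by 1.30), and of 15 pericentral markers 4 rose and 4 fell. The pericentral Cyp2e1 stood at 8944, 8881 and 9008 CPM against 4220, 4230 and 4215 CPM (log2 fold change 1.09, SE 0.11, adjusted p = 3.30e-05). The pericentral Cyp1a2 fell by 0.69.

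Messenger RNAs of several plasma proteins, a bulk product of hepatocytes, were lower. Alb, albumin, took 51640, 50790 and 56120 CPM on the ketogenic diet and 94870, 97530 and 89180 CPM on chow (log2 fold change -0.80, adjusted p = 0.000664). Ahsg (fetuin-A) fell by 1.36, Trf (transferrin) by 0.95 and the fibrinogen chain Fga by 1.08 on the log2 scale. Of 10 hepatocyte markers 6 fell, 4 did not pass and none rose. Their summed level, of which Alb was the largest part, was 102100 to 106900 CPM against 156500 to 173600 CPM. Among the markers that did not pass were the abundant plasma apolipoproteins Apoa1 (log2 fold change 0.10, adjusted p = 0.541) and Apob (0.10, adjusted p = 0.56). In bulk tissue, fewer cells of a type and less RNA per cell cannot be told apart. The 10 most abundant genes of a library took 14.7 to 15% of its counts on the ketogenic diet and 19.4 to 20.2% on chow.

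Secreted proteins did not all follow. Of 35 complement and coagulation genes 14 fell and 2 rose (median -0.20), and of 27 acute phase genes 7 fell and 4 rose. Sepp1, the selenium carrier of plasma, stood at 9299, 9248 and 7527 CPM against 4460, 4828 and 4362 CPM and rose by 0.89 (adjusted p = 0.000329). Inhbe, an activin chain made by liver, rose by 2.1 and Leap2, a peptide that blocks the ghrelin receptor, by 2.15, while Fst, which binds activins, fell by 2.18 (adjusted p = 0.000122). Hamp2, 1 of the mouse hepcidin genes, fell by 2.29 on the log2 scale, in a family where reads can be shared with Hamp. Fgf21, a hormone of the fasted liver, did not pass (log2 fold change 1.73, SE 1.16, adjusted p = 0.341).

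Of 44 enzymes that clear drugs 13 rose, 11 fell and 20 did not pass. Cyp3a11, a broad drug oxidase, was at 1320, 1328 and 1807 CPM against 5848, 6153 and 6135 CPM (log2 fold change -1.95, adjusted p = 7.05e-06). Cyp2c55 was at 0.848, 1.32 and 1.78 CPM against 31.2, 28 and 40.2 CPM (log2 fold change -4.62, adjusted p = 6.38e-06). Gstm3, a glutathione transferase, fell by 4.22 on the log2 scale. Sult1b1, a sulfotransferase, rose by 1.53, and Nr1i3 (CAR), a receptor that drives several of these enzymes, by 1.09. For haem, Alas1, the first enzyme of its synthesis, was at 504, 492 and 624 CPM against 99.6, 123 and 215 CPM (log2 fold change 1.95, adjusted p = 0.0275, with 0.109 without ketogenic replicate 3 and 0.0667 without chow replicate 2).

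Cell division genes were lower throughout. All 41 tested genes of mitosis fell, with a median log2 fold change of -3.41 and a range from -6.25 (Cdc20) to -0.93 (Cenpa, with an adjusted p of 0.0505 without ketogenic replicate 3). Cdc20, which starts the exit from mitosis (chromosome 4, 118105506 to 118109948, minus strand, mm9), was at 0.0997, 0.684 and 0.216 CPM against 22.3, 25.6 and 27.8 CPM (log2 fold change -6.25, SE 0.23, adjusted p = 5.46e-08). Mki67, the marker of cycling cells, was at 4.24, 3.68 and 3.29 CPM against 43.9, 67.6 and 42.5 CPM (log2 fold change -3.80, adjusted p = 0.000156). The 41 genes together summed to 29.5 to 44.3 CPM in the ketogenic libraries and to 308 to 430.4 CPM on chow. Of 46 DNA replication genes 24 fell, 2 rose and 20 did not pass (median -1.10). Mcm5, a part of the replicative helicase, fell by 2.55 and Rrm2, which makes deoxynucleotides, by 2.22. The 2 that rose were Mcm10, at 112, 116 and 97.5 CPM against 48.5, 31.8 and 30.5 CPM (log2 fold change 1.52, adjusted p = 0.0022), and Gins4 (0.46, adjusted p = 0.016). The calls of Mcm5 without ketogenic replicate 3 (adjusted p = 0.0504) and of Gins4 without chow replicate 3 (0.0534) were lost.

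Since these genes moved together, their promoters were read for the letters that cell-cycle genes are known to share. The windows, from RefSeq on build GRCm38.p6, cover 250 bases before and 50 bases after the gene start, and 36 of the 41 mitosis genes matched one. Both strands were searched for CCAAT, the site of the factor NF-Y, and for TTTGAA and TTTAAA, the core letters of the CHR element that represses cell-cycle genes in resting cells. TTTAAA reads the same on both strands, and matches of different motifs can share bases at their ends. TTTGAA was in 28 of 36 mitosis promoters (77.8%) and in 18.1% of all 27025 promoters, and CCAAT in 27 (75%) against 37.9%. Among 37 replication promoters TTTGAA was in 6 (16.2%) and CCAAT in 24 (64.9%). TTTAAA was in 9 mitosis promoters (25%), 4 replication promoters (10.8%) and 13.2% of all. The promoters of the 4 genes with the smallest adjusted p among the 36 matched mitosis genes are printed 5′ to 3′ on the gene's strand, with the matches to these letters on either strand in capitals; Cdc20 is at chr4:118437294-118437593 (minus strand), Plk1 at chr7:122159185-122159484 (plus), Ccnb1 at chr13:100786437-100786736 (minus) and Prc1 at chr7:80294201-80294500 (plus).
Cdc20: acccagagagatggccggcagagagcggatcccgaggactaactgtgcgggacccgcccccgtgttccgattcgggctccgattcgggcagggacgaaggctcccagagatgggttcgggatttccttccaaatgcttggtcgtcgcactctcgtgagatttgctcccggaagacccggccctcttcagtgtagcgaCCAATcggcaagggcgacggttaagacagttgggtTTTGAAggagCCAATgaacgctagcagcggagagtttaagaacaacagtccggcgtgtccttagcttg
Plk1: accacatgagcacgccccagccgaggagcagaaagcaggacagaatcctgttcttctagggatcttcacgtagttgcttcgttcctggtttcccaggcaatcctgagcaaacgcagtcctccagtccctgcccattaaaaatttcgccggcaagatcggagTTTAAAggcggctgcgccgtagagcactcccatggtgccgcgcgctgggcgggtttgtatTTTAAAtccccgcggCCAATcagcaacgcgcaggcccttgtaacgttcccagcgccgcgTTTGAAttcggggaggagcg
Ccnb1: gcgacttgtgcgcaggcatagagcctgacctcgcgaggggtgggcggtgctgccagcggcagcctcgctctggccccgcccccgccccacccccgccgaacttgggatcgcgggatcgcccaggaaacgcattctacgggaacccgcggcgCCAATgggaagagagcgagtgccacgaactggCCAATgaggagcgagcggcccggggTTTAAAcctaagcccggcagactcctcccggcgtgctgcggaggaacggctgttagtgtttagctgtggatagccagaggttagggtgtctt
Prc1: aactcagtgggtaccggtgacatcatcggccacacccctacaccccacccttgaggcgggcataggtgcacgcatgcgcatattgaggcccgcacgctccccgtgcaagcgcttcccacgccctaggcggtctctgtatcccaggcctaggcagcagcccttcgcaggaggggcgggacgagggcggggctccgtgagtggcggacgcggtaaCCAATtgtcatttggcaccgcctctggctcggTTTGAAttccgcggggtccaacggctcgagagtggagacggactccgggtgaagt
Each holds 1 or 2 matches of CCAAT. The letters TTTGAA are in Cdc20, Plk1 and Prc1, and TTTAAA is in Plk1 and Ccnb1. On the log2 scale Cdc20 fell by 6.25, Plk1 fell by 4.46, Ccnb1 fell by 4.83 and Prc1 fell by 3.98. A match is a description of the letters in this window.

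Early-life genes of the liver fell as well, 5 of 10 with none rising. Igf2bp3, an RNA-binding protein of fetal tissue, was at 0.0997, 0.0526 and 0.485 CPM against 10.3, 13.2 and 13.3 CPM (log2 fold change -5.80, SE 0.43, adjusted p = 3.69e-05). Afp, the fetal albumin, was at 0.997, 1.79 and 1.62 CPM against 2.72, 4.15 and 5.32 CPM (log2 fold change -1.45, adjusted p = 0.00357). H19, an imprinted growth-related RNA, summed to 3 counts over the ketogenic libraries and 310 over chow, a ratio of 87.5 with a 95% exact interval of 29.7 to 426 that covers counting error only.

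The p53 program did not move in 1 direction. Of 33 tested p53 targets, Trp53 itself included, 7 rose, 7 fell and 19 did not pass, and the median log2 fold change was -0.10. These counts lie near the shares over all tested genes, 19.2% higher and 17.6% lower. Cdkn1a (p21; chromosome 17, 29227931 to 29237667, plus strand, mm9) was at 1.55, 2.42 and 0.917 CPM against 9.66, 12.2 and 6.32 CPM. It was lower in every ketogenic library than in every chow library (log2 fold change -2.60, SE 0.39, adjusted p = 0.00242). Bbc3 (PUMA), a trigger of cell death, was at 4.79, 4.84 and 6.09 CPM against 21.6, 15.8 and 13.2 CPM (log2 fold change -1.65, adjusted p = 0.000664). Mdm2, the ligase that p53 induces and that degrades it, was at 30, 32 and 30 CPM against 20.6, 25.9 and 22.5 CPM (log2 fold change 0.41, adjusted p = 0.018). Its adjusted p was 0.0552 without ketogenic replicate 3 and 0.0554 without chow replicate 1. Ccng1, another direct target, rose by 0.56 (adjusted p = 0.00317) and Rps27l by 1.48 (adjusted p = 4.34e-06). Rps27l is a short gene (464 bases), and it rose by 0.84 with the length trend removed, as described further on. Trp53 was at 10.1, 12.3 and 20 CPM against 23.9, 27.9 and 29.7 CPM, with ketogenic replicate 3 closest to chow (log2 fold change -0.83, adjusted p = 0.0464). It did not pass when ketogenic replicate 2 (adjusted p = 0.0747), chow replicate 2 (0.112) or chow replicate 3 (0.128) was left out.

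**Figure D2:**
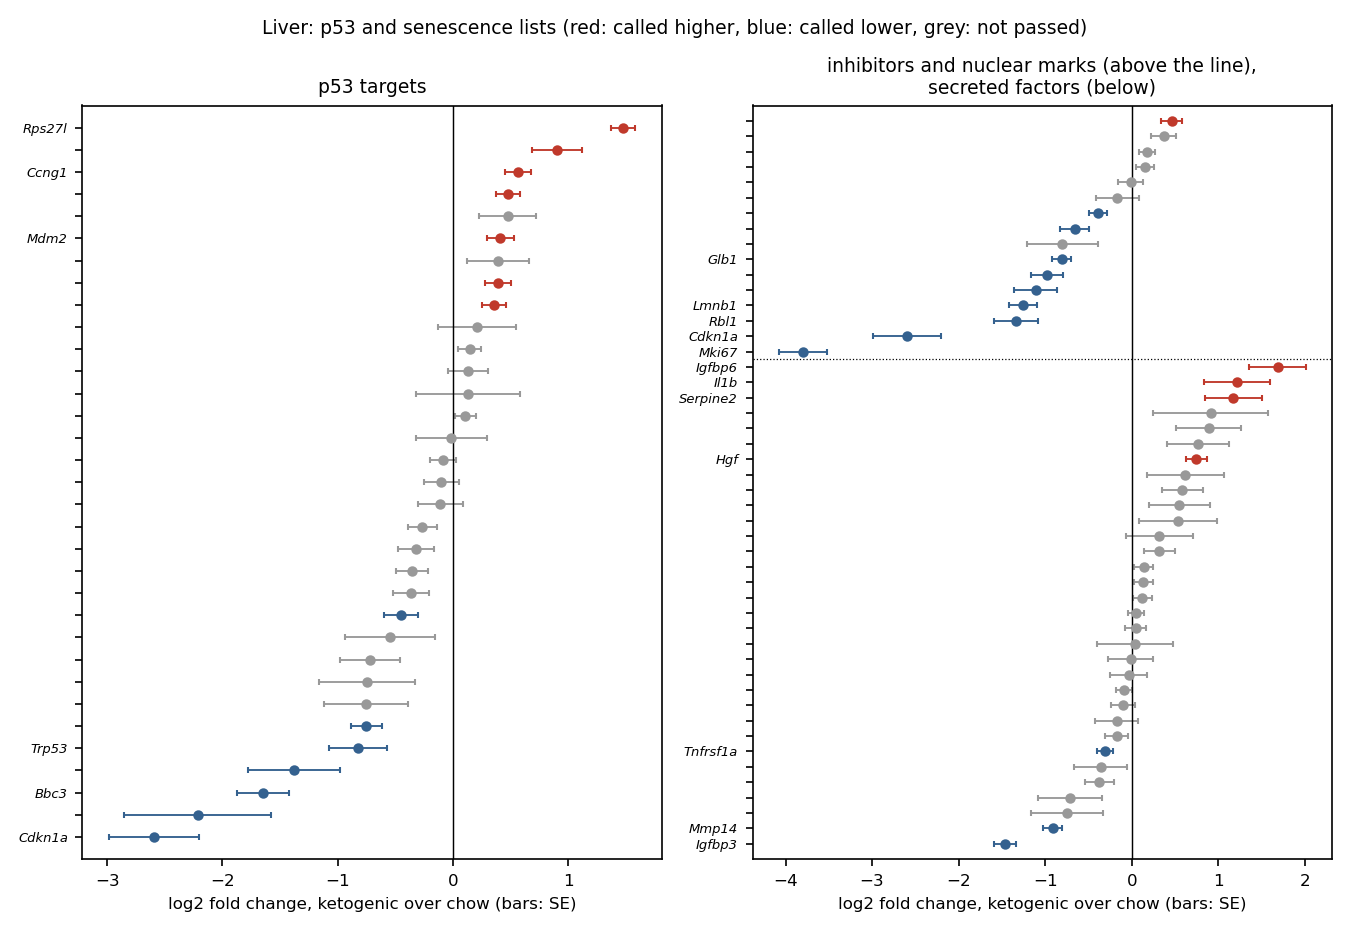
Log2 fold change of ketogenic over chow with its SE for the tested p53 targets (left) and for cell-cycle inhibitors with nuclear marks and secreted factors (right), in red where called higher, blue where called lower and grey where not passed; only genes given in the text are labelled, and 1 gene is left out of the right panel. The p53 targets lie on both sides of 0, with Cdkn1a the lowest at -2.60 and Rps27l the highest at 1.48.

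Of 17 senescence and cell-cycle genes 9 fell and 2 rose (median -0.66). Lmnb1, lamin B1, which senescent cells lose, was at 5.48, 5.68 and 5.12 CPM against 11.5, 15 and 12.2 CPM (log2 fold change -1.26, SE 0.16, adjusted p = 0.000162). Lmnb1 is also a transcript of cycling cells, as are Mki67, Rbl1 and others in the same list, and their part in the count was not tested. Glb1, the lysosomal enzyme behind the senescence stain, fell by 0.81 (adjusted p = 0.000218). Cdkn2a, the gene of p16, held 3 counts over the ketogenic libraries and 5 over chow, too few to compare (ratio of chow to ketogenic 1.41, 95% exact interval 0.275 to 9.08, counting error only).

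Of 50 secreted factors linked to senescence in the files, 33 were expressed enough to test. Among these 5 rose, 3 fell and 25 did not pass (median 0.12). Called genes were thus less frequent here than over all tested genes, where 19.2% were higher and 17.6% lower. Several of these factors have low counts, and the part of low counts in this difference was not tested. Igfbp6, a binding protein of insulin-like growth factors, was at 2.74, 3.05 and 2.91 CPM against 1.36, 0.587 and 0.767 CPM, with no overlap (log2 fold change 1.69, SE 0.33, adjusted p = 0.00218). Among the other rises were Serpine2 (1.17), Hgf, the hepatocyte growth factor (0.75), and Il1b. Il1b was at 2.59, 3 and 1.46 CPM against 1.04, 0.545 and 1.26 CPM (log2 fold change 1.22, adjusted p = 0.0295), but did not pass when chow replicate 1 (0.0557) or chow replicate 2 (0.0801) was left out. Igfbp3, Mmp14 and Tnfrsf1a fell by 1.46, 0.91 and 0.31, and Tnfrsf1a had an adjusted p of 0.0778 without chow replicate 2.

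Genes of the extracellular matrix were lower. Of 38 matrix genes 25 fell, 1 rose (Dcn, by 0.36) and 12 did not pass, with a median log2 fold change of -0.85. Col4a1, a chain of the basement membrane collagen, stood at 53.8, 55.2 and 54.5 CPM against 164, 156 and 148 CPM (log2 fold change -1.51, SE 0.10, adjusted p = 3.36e-06). Col5a1 fell by 1.62, Sparc, which binds collagen, by 1.26 and Eln, elastin, by 2.37. Beside these falls, the 11 stellate cell markers summed to 424 to 444 CPM on the ketogenic diet and 435 to 486 CPM on chow, with 1 higher, 2 lower and 8 not passed. Sinusoidal endothelial markers, 13 in all, summed to 774 to 801 CPM against 838 to 892 CPM, with 3 higher and 6 lower.

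Interferon and antigen presentation genes were more often higher, 16 of 44 against 3 lower (median 0.41). Gbp3, a guanylate-binding protein of the interferon response, was at 15.2, 15.3 and 16.6 CPM against 7.85, 8.81 and 6.86 CPM (log2 fold change 1.02, adjusted p = 0.00025). Ifi27l2a was at 10.5, 11.9 and 6.42 CPM against 2.68, 3.31 and 2.39 CPM and rose by 1.68 (adjusted p = 0.000575). The class II gene H2-Aa was at 36.4, 35.9 and 16.7 CPM against 9.71, 11.3 and 9.29 CPM (log2 fold change 1.41, adjusted p = 0.0375). It did not pass when any 1 chow library was left out (adjusted p = 0.122, 0.0979 and 0.158 without replicates 1, 2 and 3). Immune cell markers, read in the same libraries, were mostly not called, and none of the 5 tested B cell markers was. The 7 monocyte markers, none of them called, summed to 139.5, 131 and 57.1 CPM on the ketogenic diet and to 42.5, 46.9 and 35.9 CPM on chow. The 12 Kupffer cell markers, none called, summed to 623, 629.9 and 406 CPM against 489, 545 and 461 CPM. Of 4 tested neutrophil markers 3 rose, and the sum over all 10 markers in the files went from 1.98 to 2.90 CPM on chow to 4.10 to 8.79 CPM. Ketogenic replicate 3 was lowest of the ketogenic libraries in the monocyte, Kupffer cell and neutrophil sums, and the part of these cells in the interferon result was not tested.

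Cfd (adipsin, complement factor D; chromosome 10, 79353598 to 79355401, plus strand, mm9), known as a product of fat cells, showed the largest rise of all tested genes. It was at 112, 116 and 56.3 CPM on the ketogenic diet and at 1, 2 and 1 counts in the chow libraries. The summed counts, 5510 against 4, gave a ratio of 1627 with a 95% exact interval of 635 to 5975 that covers counting error only (adjusted p = 0.000516). The 7 adipocyte markers summed to 1862, 1874 and 2736 CPM against 1524, 1953 and 1825 CPM, mostly Pck1, which hepatocytes use to make glucose. Of the defining markers Adipoq was at 0.105 CPM or less and Plin1 at 0.0499 CPM or less in each liver library, and 2 of the 7 adipocyte markers were at 0 in all 6. Themis, best known as a T cell signalling protein, was at 14.7, 11.5 and 16.1 CPM against 0.0907, 0.294 and 0.0451 CPM (log2 fold change 6.59, adjusted p = 1.16e-06). The T and NK cell markers summed to 5.55 to 10.1 CPM on the ketogenic diet and 5.32 to 7 CPM on chow, and 1 of 8 tested (Cd3d) rose.

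Clock genes changed in both directions. Arntl (BMAL1), the activator at the centre of the clock, was at 1.99, 1.68 and 1.83 CPM against 36.5, 25.6 and 22 CPM (log2 fold change -3.92, SE 0.27, adjusted p = 2.79e-05). Its partner Clock fell by 0.72. Usp2, a rhythmic deubiquitinase, was at 33.9, 37.5 and 67.2 CPM against 2.22, 2.43 and 4.87 CPM (log2 fold change 4.01, adjusted p = 0.00717), and Tef, an output factor, rose by 1.85 (adjusted p = 0.00907, and 0.0517 without ketogenic replicate 3). Of 20 clock genes 8 rose, 5 fell and 7 did not pass. The hour at which each liver was taken is not given in the labels used here, so the diet and a different hour of collection cannot be told apart for these genes.

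The E-box CACGTG, the site that BMAL1 and CLOCK bind, was searched on both strands in the same promoter windows. It was in 5 of 17 matched clock promoters (29.4%) and in 7.24% of all. Bhlhe41, a repressor within the clock, had the smallest adjusted p of those that hold it, at 7.43, 8.58 and 10.6 CPM against 0.181, 0.21 and 0.271 CPM (log2 fold change 5.36, adjusted p = 1.16e-06). Gm129 (Ciart), another repressor, has 3 matches and rose by 5.55 (adjusted p = 0.00304). The rest that hold it did not all rise. Tef rose, Per1 did not pass (log2 fold change 2.11, adjusted p = 0.158) and Cry1 fell by 0.79 (adjusted p = 0.0153). The Bhlhe41 promoter lies at chr6:145865371-145865670 on the minus strand of GRCm38.p6 and is printed with its E-box in capitals.
Bhlhe41: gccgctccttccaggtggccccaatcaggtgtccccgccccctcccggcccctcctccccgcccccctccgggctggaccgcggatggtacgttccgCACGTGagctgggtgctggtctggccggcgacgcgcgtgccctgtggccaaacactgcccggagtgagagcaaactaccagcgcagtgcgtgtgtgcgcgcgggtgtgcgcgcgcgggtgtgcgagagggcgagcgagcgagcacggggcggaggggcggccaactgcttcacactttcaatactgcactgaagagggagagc

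The same search was made with letters of other known sites. The sterol response element TCACNCCAC was in none of 17 matched promoters of sterol synthesis genes (1.22% of all), and the perfect direct repeat with a spacing of 1 base (DR1), the site of PPAR-alpha dimers, in none of 20 mitochondrial and 16 peroxisomal oxidation promoters (0.0444% of all). These letters are not in these windows.

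Respiratory chain and proteasome genes were higher, and so were short transcripts as a whole. Of 37 complex I genes 24 rose and none fell (median 0.45), of 40 genes of complexes II to V 24 rose and 1 fell (median 0.41), and of 31 proteasome genes 22 rose and none fell (median 0.45). Ndufa7, a small subunit of complex I, was at 133, 139.8 and 108 CPM against 41.9, 45.5 and 40 CPM (log2 fold change 1.53, adjusted p = 5.74e-06). Psma7, a subunit of the proteasome core, was at 155, 165 and 126 CPM against 54.9, 57.8 and 51.8 CPM (log2 fold change 1.39, adjusted p = 9.91e-06).

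The median summed exon length was 651 bases for complex I genes, 723 bases for complexes II to V and 1296 bases for the proteasome, where it was 2830 bases over all tested genes. Among the 806 tested genes of 500 to 1000 bases the median log2 fold change was 0.41, with 46.5% called higher and 6.08% lower. Among the 561 genes over 8000 bases it was -0.12, with 7.84% higher and 23.5% lower. The rank correlation of log2 fold change with length was -0.225 (Spearman, 13220 genes of the same libraries, a description). Each ketogenic library held the short genes above and each chow library below the mean of the 6, and ketogenic replicate 3 lay closest to 0. For genes over 8000 bases the ketogenic libraries did not agree. Replicates 1 and 2 had medians of -0.12 and -0.14 relative to that mean. Replicate 3 was at 0.04, on the side of the chow libraries (0.07, 0.11 and 0.06). Rmrp, a short structural RNA without a poly(A) tail (275 bases), was at 4377, 4301 and 3451 CPM against 378, 758 and 406 CPM (log2 fold change 2.92, adjusted p = 0.00534). Rpph1, another such RNA, was at 10530, 10350 and 6811 CPM against 530.5, 1815 and 475 CPM (log2 fold change 3.20, adjusted p = 0.0666).

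**Figure D3:**
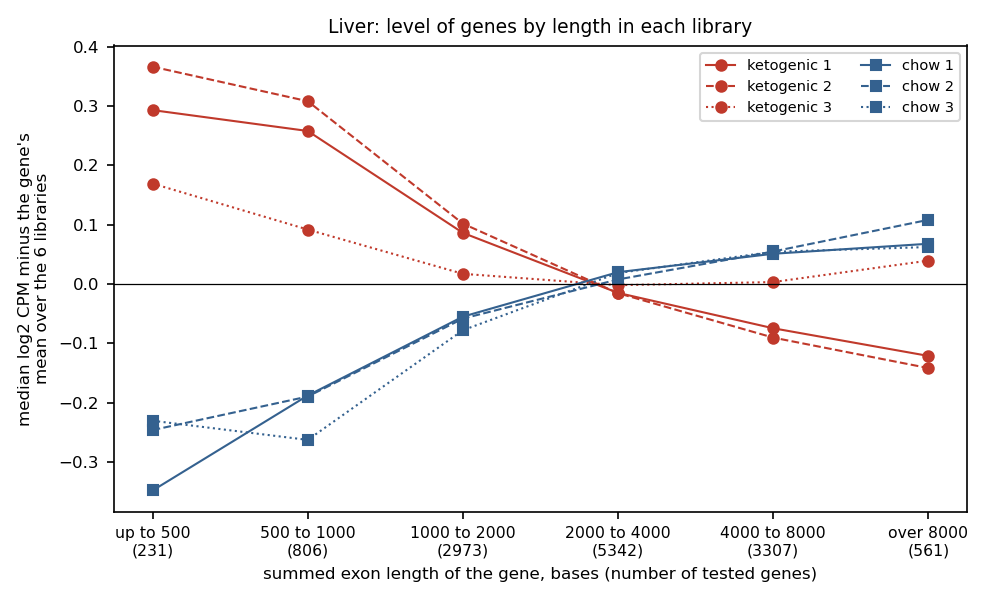
Median log2 CPM of genes in 6 classes of summed exon length, relative to each gene's mean over the 6 libraries, for ketogenic (circles) and chow (squares) libraries; brackets give the number of tested genes. In the shortest class the ketogenic medians are 0.29, 0.37 and 0.17 and the chow medians -0.35, -0.25 and -0.23.

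A fit in which the length trend of each sample was removed, added after seeing the data, made 4846 calls (36.7%): 2332 higher (17.6%) and 2514 lower (19%), with 4208 shared with the fit above and 3 called in the opposite direction. In it complex I had 12 genes higher and 4 lower (median 0.02), complexes II to V 13 higher and 9 lower (median -0.05) and the proteasome 16 higher and 1 lower (median 0.24). Ndufa7 rose by 0.91 there and Psma7 by 1.03 on the log2 scale. The lipoprotein median moved from 0.19 to -0.03. The lists of oxidation, sterol synthesis, lipogenesis, mitosis and matrix were little changed by it: 18 of 23 beta-oxidation genes rose, 14 of 25 sterol genes rose, 18 of 32 synthesis genes fell, all 41 mitosis genes fell and 23 of 38 matrix genes fell. Besides Etfb, 4 genes given above as called did not pass in it: Thrsp (log2 fold change 0.75, adjusted p = 0.136), Gins4 (0.29, adjusted p = 0.0734), Il1b (1.03, adjusted p = 0.0561) and Trp53 (-0.89, adjusted p = 0.0596). The fit removes any change that goes with length, whatever its source, and the source was not tested.

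**Figure D4:**
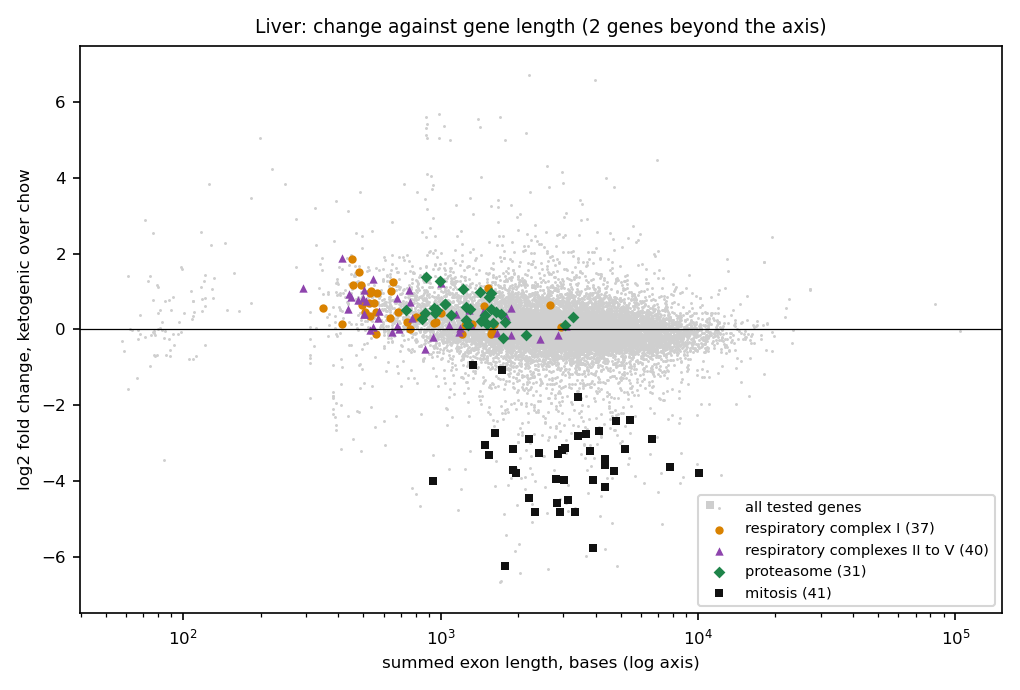
Log2 fold change of ketogenic over chow against summed exon length on a log axis for all 13220 tested genes (grey) and 4 gene lists (coloured). Respiratory chain genes sit at the short end where the grey cloud also lies above 0, while the mitosis genes lie below 0 at each length.

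**Figure D5:**
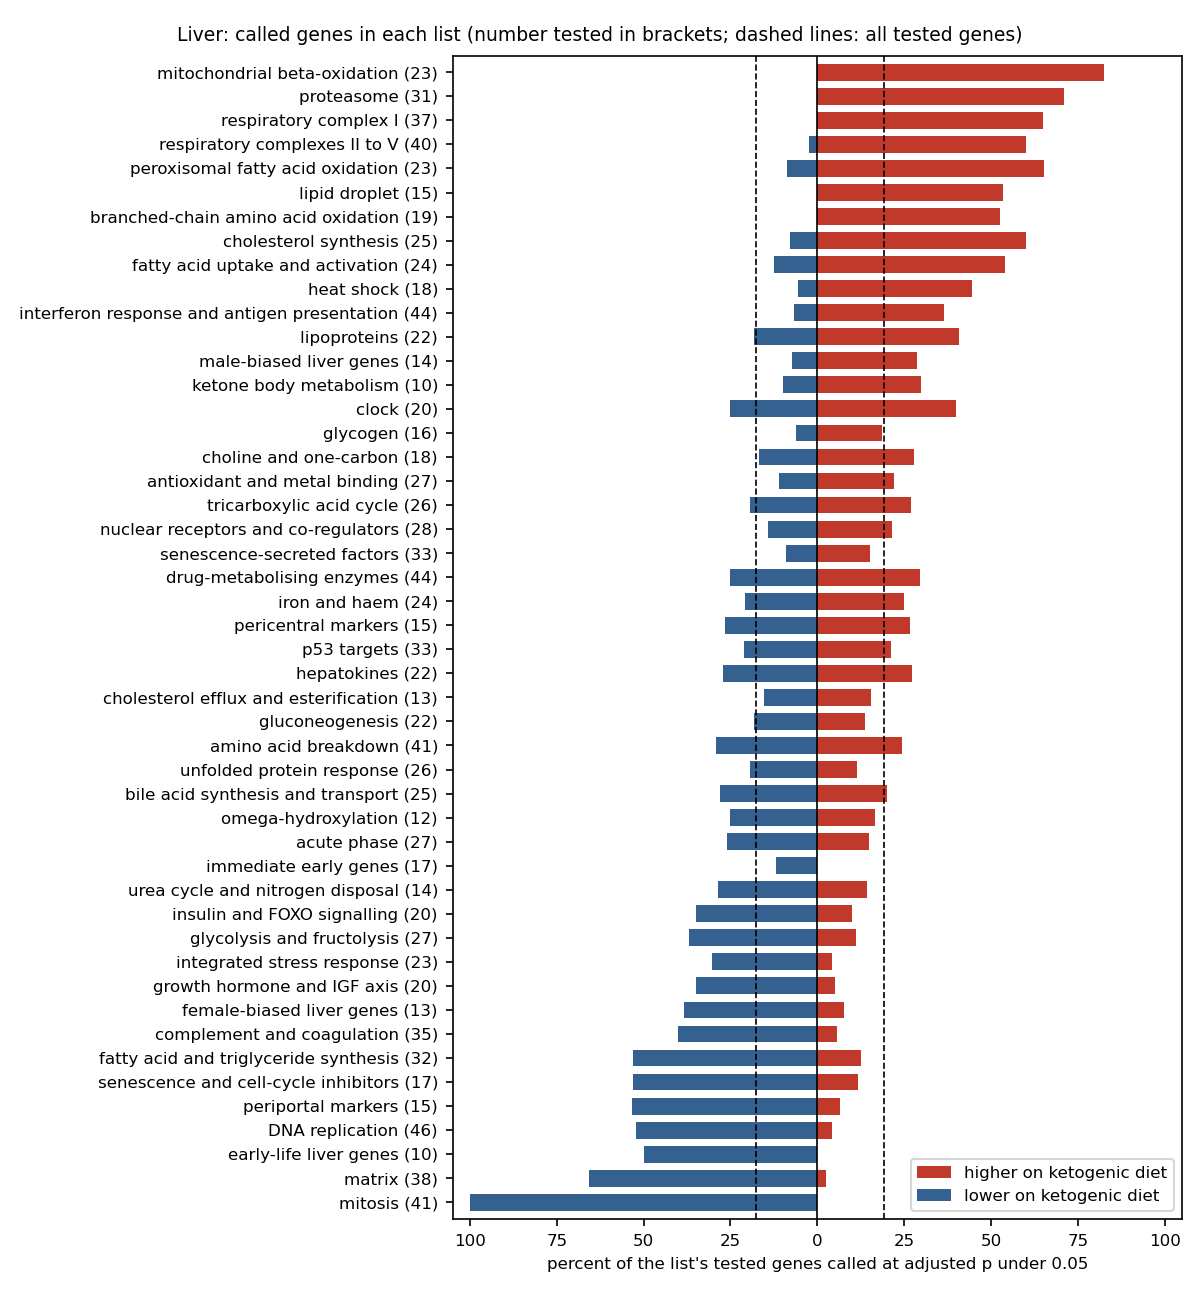
Percent of the tested genes of each list (48 lists with at least 10 tested genes) that were called higher (right, red) or lower (left, blue) on the ketogenic diet, with dashed lines at 19.2% and 17.6% for all tested genes. Beta-oxidation and the proteasome stand at the top and mitosis, with all 41 genes lower, at the bottom.

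Of 23 genes of the integrated stress response 7 fell and 1 rose, with Chac1, which breaks down glutathione, down by 1.55. Among 26 genes of the unfolded protein response 5 fell and 3 rose, where 17.6% of all tested genes were lower and 19.2% higher. Of 18 heat shock genes 8 rose and 1 fell (median 0.32), led by the small chaperone Hspb1 at 12.4, 12.6 and 10.1 CPM against 3.17, 2.31 and 2.8 CPM (log2 fold change 2.04, adjusted p = 1.77e-05). Of 27 antioxidant and metal-binding genes 6 rose, 3 fell and 18 did not pass, beside the same shares over all tested genes. With the length trend removed 4 rose and 5 fell. Gpx4, which detoxifies lipid peroxides, rose by 1.41 (adjusted p = 1.16e-05, and by 1.20 with the trend removed), and Gclc, which starts glutathione synthesis, fell by 0.94.

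In phosphatidylcholine synthesis, Chpt1, which joins choline to diacylglycerol, stood at 318, 290.4 and 294 CPM against 98.4, 78.9 and 84 CPM (log2 fold change 1.78, adjusted p = 2.35e-06), and Chka, a choline kinase, at 19.9, 19.6 and 16.2 CPM against 78.6, 49 and 48.3 CPM (log2 fold change -1.69, adjusted p = 0.00547). No ketogenic library overlapped chow in either gene. Among the 15 largest falls were Atp2b2, a calcium pump of the cell membrane, by 5.14 and Slc34a2, a phosphate transporter, by 4.93 on the log2 scale. Osbpl3, which binds sterols, was among the 15 largest rises at 18.8, 17.6 and 31.9 CPM against 0.771, 0.713 and 1.9 CPM (log2 fold change 4.46, adjusted p = 0.00201).

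The diet effect in liver was set beside those in heart and kidney for 7 genes. The difference of the diet effect was tested in 1 edgeR model of all organs over 15695 genes, with the near-identical pairs of liver and heart summed. It passed for 3695 genes between liver and heart (23.5%) and for 3415 between liver and kidney (21.8%); both contrasts share the liver samples. Pdk4 fell in liver (log2 fold change -1.19) where its heart value was 2.96 and its kidney value 0.24 (adjusted p of the difference 7.94e-06 and 0.00529). Cdkn1a had log2 fold changes of -2.60 in liver, -1.22 in heart and -1.09 in kidney. Its difference passed against kidney (adjusted p = 0.0421) and not against heart (adjusted p = 0.0541). Cpt1a had values of 0.89 in liver, 0.96 in heart and 0.62 in kidney, and neither difference passed (-0.06, SE 0.20, and 0.27, SE 0.19).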

How the data were processed

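RNA-seq of 6 liver libraries, 3 per diet, was analysed. The deposited values are estimated counts per gene, which the authors made, per the file headers, by counting read pairs with featureCounts v1.5.0-p1 on UCSC mm9 annotation, by strand, with exons summed per gene and reads of several genes or places counted as fractions. The submitters' processing notes also name HISAT2 2.1.0, SAMtools and bcl2fastq. Each library lists 22609 genes. Families of near-identical genes (Mup, Cyp2a, Cyp4a, Gstm, Acot) are uncertain, since fractional counting splits their reads.

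Counts were rounded, ketogenic replicates 1 and 2 were summed, and genes were filtered by expression, scaled by TMM and tested with edgeR 4.0.16 (R 4.3.3; robust quasi-likelihood, Benjamini-Hochberg adjustment, threshold 0.05); the procedure was tested on simulated data. Total counts per liver library were 18151967 to 23835383. Alternatives used limma 3.58.1, DESeq2 1.42.0, other scalings and filters, and each library left out. Counting intervals (95% exact) cover counting error only. Named genes were the 15 largest changes per direction among called genes that do not overlap and have a mean log2 CPM of at least 2, key members of each list, and the called members that lead each list; Thrsp, Nr0b2, Lipg, Inhbe, Leap2, Eln, Serpine2, Tef, Abcb11, Rbl1, Pfkl, Etfa, Etfb, Etfdh, Cenpa, Prc1, Rmrp, Rpph1, Xist, Ddx3y, Adipoq, Plin1 and Usp2 were added after their values were seen. Some genes of the lists are not reported here by name. Members, lists and tests were chosen with earlier results of these data known. Gene coordinates are mm9 as in the files, and promoters are RefSeq, GRCm38.p6.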

Additional observations from a re-analysis of the deposited data

Results flagged for a closer look

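The diet effect differed between liver and another organ, by the test of the difference itself, in 7 of 14 comparisons over 7 genes; adjusted p-values are edgeR's over 15695 genes, and both organ comparisons share the liver samples. Against heart, the log2 fold change in liver was lower by the difference of -4.153 for Pdk4 (adjusted p = 7.94e-06), -1.726 for Arntl (adjusted p = 0.00117) and -1.096 for Angptl4 (adjusted p = 0.00714). For Cidec the difference was 11.36 (adjusted p = 0.0257), and it became 3.51 (adjusted p = 0.872) without heart chow replicate 3. Without that library the difference of Scd1 moved from -2.01 (adjusted p = 0.539) to -6.08 (adjusted p = 0.00916). Against kidney, the differences were -2.271 for Arntl (adjusted p = 0.00017), -1.507 for Cdkn1a (adjusted p = 0.0421) and -1.429 for Pdk4 (adjusted p = 0.00529). Without kidney ketogenic replicate 1 the difference of Angptl4 moved from -0.59 (adjusted p = 0.0992) to -0.73 (adjusted p = 0.0318).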

How the results depend on the processing

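The count of 4868 called liver genes stayed within 1.5 times, and no shared call changed sign, under DESeq2 (4637), limma-voom (4974), RLE size factors (4882), total count scaling (4650), no filter (4933), a filter of CPM 1 in 2 samples (4781), unrounded counts (4870) and 1 model of all organs (4980, 4315 shared). The test against a 1.5-fold change left 1072 genes (561 higher, 511 lower). Leaving out 1 library gave 3964 (without chow replicate 2) to 4759 calls (without ketogenic replicate 2), 2077 to 2472 of them higher and 1887 to 2287 lower. Replicate numbers did not pair the libraries: the correlations of same-numbered deviations were 0.11, -0.02 and 0.14. With the replicate number as a block on 6 separate libraries 6174 genes passed, against 6164 without the block. With the length trend removed 4846 genes passed, 4208 of them shared, and 3 passed in the opposite direction. The number of samples, 2 ketogenic and 3 chow, limits the precision.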
